A study of Mus musculus with 10 samples.

Results

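The synaptic vesicle and release machinery was followed through 38 genes, listed by gene symbol with earlier results of these data known. The tissue was the cortical midline of mouse embryos of strain C57/Bl6 on embryonic day 14.5. All 38 were in the RNA table and had a mean of at least 10 normalized counts, so all were among the 14324 genes tested. RNA-seq compared 2 conditional knockout (cKO) libraries with 2 control libraries. The cKO embryos carried floxed Rcor2 alleles and EMX1-iCRE (label Rcor2f/f/EMX1-iCRE), and the controls carried the floxed alleles alone (label Rcor2f/f). Rcor2 belongs to the CoREST proteins, corepressor scaffolds that bring the demethylase Kdm1a and histone deacetylases to chromatin. The Emx1 driver is active in progenitors of the dorsal telencephalon and their descendants, and not in ventrally born interneurons, vessels or meninges. ChIP-seq of wild-type midline used 2 libraries with an Rcor2 antibody, 2 with rabbit IgG and 2 of input chromatin. The labels do not give litters, pooling or how far single libraries are separate animals, so each p-value measures only the spread between these libraries.

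Neurotransmitter is stored in synaptic vesicles, which dock at the active zone of the presynaptic membrane and fuse with it when calcium enters. Fusion is driven by SNARE proteins on the vesicle and on the plasma membrane, triggered by synaptotagmins, held and primed by complexins and Unc13 proteins, and followed by retrieval of the membrane through clathrin-dependent endocytosis. Young projection neurons begin to express these genes soon after they leave the cell cycle, when few synapses have formed, and Rest, the factor for which the CoREST proteins are named, is known to repress many of them outside neurons.

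The cKO libraries held 28309925 and 29783893 recovered reads and the control libraries 30270598 and 27674987. Rcor2 itself had 6363 and 6840.2 normalized counts in the cKO libraries, against 7901 and 7257 in the controls (log2 -0.20, SE 0.0574, limma adjusted p 0.0541). It did not pass the threshold of 0.05 with limma or with edgeR (adjusted p 0.100). It passed with DESeq2 on recovered reads (adjusted p 0.0478) and in the authors' deposited test (adjusted p 0.0444). The exons removed by recombination are not stated, so the count over the whole gene tests the genotype labels poorly. Meningeal and fibroblast markers differed between the cKO libraries: the sum of 6 such genes was 635% and 135% of the control mean in cKO replicates 1 and 2, against 107% and 93.0% in the controls. Markers of microglia summed to 90.8 and 93.0% in the cKO, against 105 and 95.2% in the controls, and those of endothelium and pericytes to 93.8 and 94.5%, against 99.7 and 100.3%. No marker of any of these lists that was in the table was at 0 in every library, and the part that such cells have in the results was not tested.

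Of the 38 release machinery genes, 20 fell in the cKO at a limma adjusted p under 0.05, 0 rose and 18 did not pass. Among all tested genes 8.29% fell and 6.16% rose. The 38 were chosen with earlier results of these data known, so their share describes this choice of genes. Of 50 tested release genes left outside the set, 15 fell and 4 rose (median log2 -0.13). The median log2 change of the 38 genes was -0.40, against -0.01 for all tested genes, and single genes ran from -0.98 to 0.27. The genes that fell kept between 50.7 and 81.8% of the control mean, with a median of 73.3%. In 29 of the 38 genes both cKO libraries lay below both controls, a pattern held by 33.3% of tested genes, in 3 both lay above, against 27.7%, and in 6 the groups overlapped. Against the mean of the controls, the 38 genes had a median log2 difference of -0.47 for cKO replicate 1 and -0.31 for cKO replicate 2. With edgeR on recovered reads 18 of the 20 fell and 1 other gene, Syt7, rose (percentages over all genes 6.47 and 5.69), and in the authors' deposited table the same 20 genes had an adjusted p under 0.05, all with negative log2 changes (over all tested genes with an adjusted p there, 6.73% fell and 5.93% rose). The count was lower with either control left out: 5 fell without control replicate 1 and 4 without control replicate 2, when 0.761 and 0.572% of all genes fell, whereas 18 fell without cKO replicate 1 (5.83%) and 24 without cKO replicate 2 (13.4%). Syt4 and Snap25 fell in each of these 4 fits. In bulk tissue, fewer neurons and less RNA per neuron cannot be told apart.

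**Figure D1:**
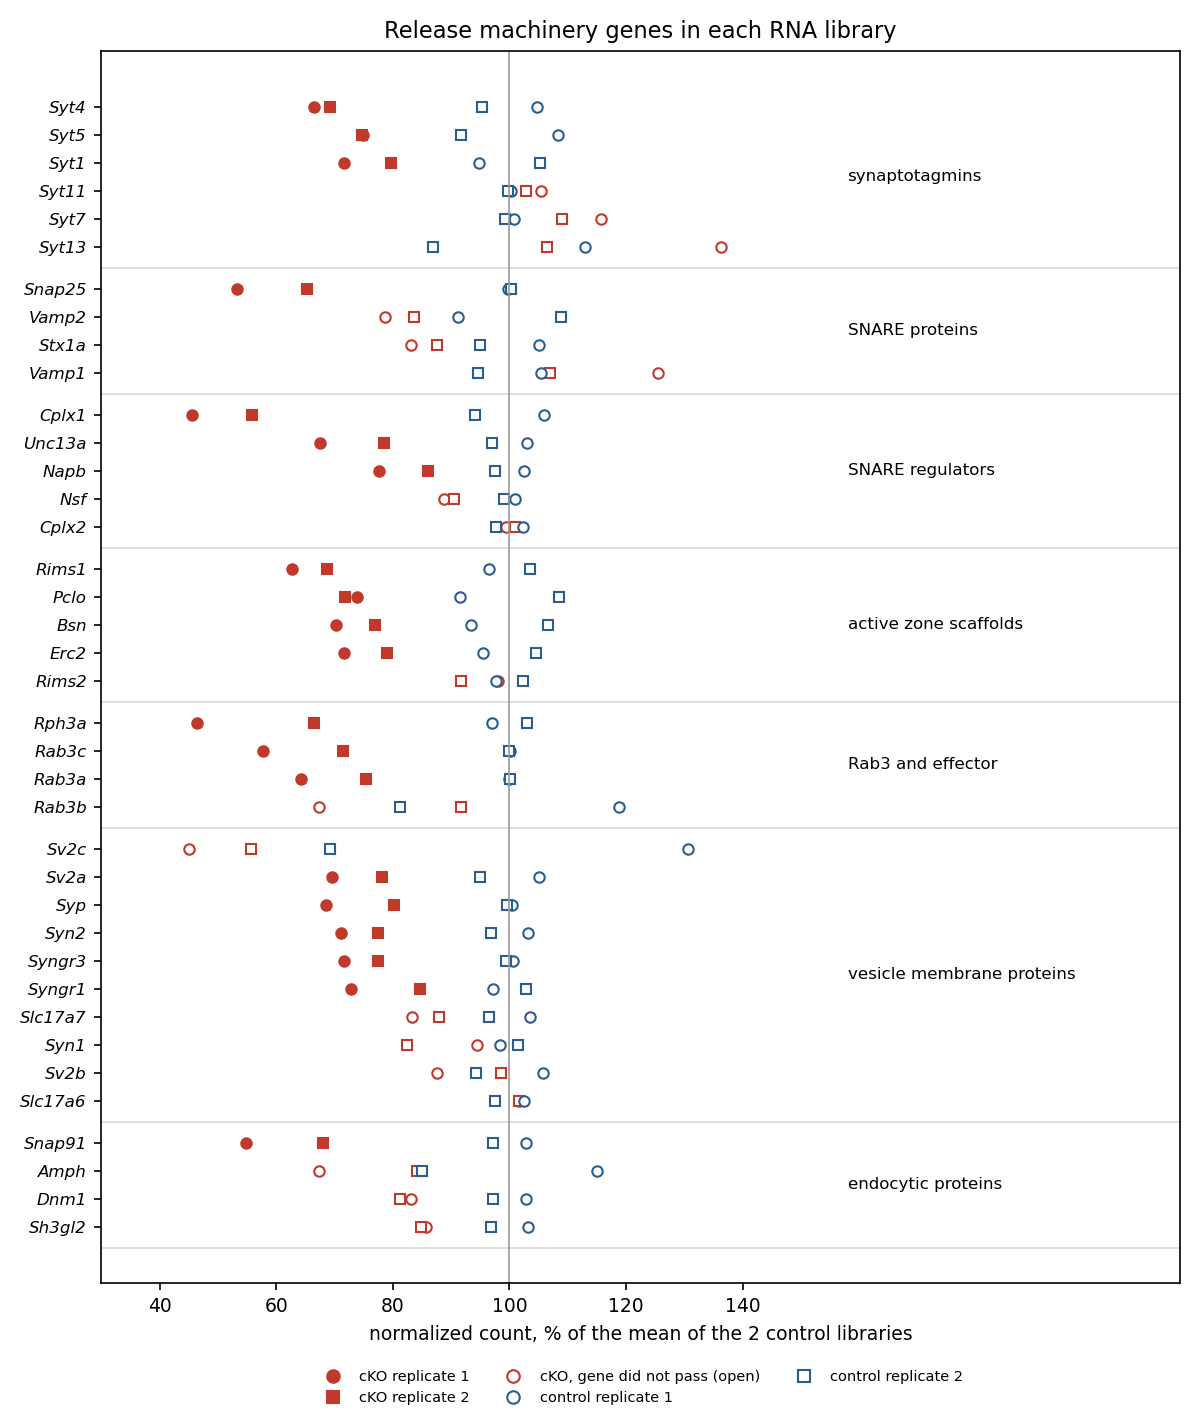
Normalized count of each of the 38 genes in each RNA library (x axis, percent of the mean of the 2 control libraries), grouped by role, with red for cKO and blue for control, circles for replicate 1 and squares for replicate 2, and filled red symbols for the 20 genes that fell. The filled symbols lie left of both control symbols in every row, and cKO replicate 1 lies left of cKO replicate 2 in 18 of the 20 rows.

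The synaptotagmins split by member. Syt1, the calcium sensor of fast synchronous release, had 1305 and 1453 normalized counts in the cKO libraries, against 1728 and 1919.9 in the controls (log2 -0.40, SE 0.0745, limma adjusted p 0.0122). Syt4, a synaptotagmin of vesicle trafficking that responds poorly to calcium (GRCm38 chr18:31437808-31447415), had 2961 and 3085 in the cKO, against 4668 and 4245 in the controls (log2 -0.56, SE 0.0571, limma adjusted p 0.00387). Syt5, a calcium-binding member, had 445 and 444 in the cKO, against 645 and 546 in the controls (log2 -0.41, SE 0.0977, limma adjusted p 0.0276). For these 3 genes every cKO value was below every control value. The other 3 were not lower. Syt7, a slow calcium sensor linked to asynchronous release, had 2599 and 2447 in the cKO, against 2263 and 2227 in the controls (log2 0.17, limma adjusted p 0.0672; edgeR adjusted p 0.0438). Syt11, a member without calcium binding that is linked to vesicle retrieval, had 15547 and 15153 in the cKO, against 14781 and 14699.9 in the controls (log2 0.06, limma adjusted p 0.406). Both genes were slightly higher in each cKO library than in either control. Syt13 was low, with 57.6 and 45.0 in the cKO, against 47.8 and 36.8 in the controls (log2 0.27, SE 0.247), and its groups overlapped.

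Of the 4 SNARE genes, 1 fell. Snap25, the plasma membrane SNARE (chr2:136713439-136782428), had 1224 and 1501 normalized counts in the cKO, against 2293 and 2302 in the controls (log2 -0.76, SE 0.0885, limma adjusted p 0.00429), so that 59.3% of the control level was left and the controls differed by far less than the groups. Its partner on the plasma membrane, Stx1a, had 634 and 668 in the cKO, against 803 and 724 in the controls (log2 -0.23, limma adjusted p 0.0956). The vesicle SNARE Vamp2 had 886 and 942 in the cKO, against 1027 and 1227 in the controls (log2 -0.30, limma adjusted p 0.0620). For both genes every cKO value was under every control value without reaching the threshold. The related Vamp1, which serves mainly hindbrain and spinal circuits, had 109 and 93.0 in the cKO, against 91.7 and 82.2 in the controls (log2 0.21, limma adjusted p 0.456).

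Among the regulators of SNARE assembly, 3 of 5 fell. Cplx1, a complexin that clamps and promotes fusion of assembled SNARE complexes (chr5:108518554-108550027), had 248 and 303 normalized counts in the cKO, against 576 and 511 in the controls (log2 -0.98, SE 0.121, limma adjusted p 0.00506), the largest limma estimate of the 38 genes; with edgeR that of Sv2c was larger (log2 -0.98, against -0.97 for Cplx1). The close relative Cplx2 had 4690.2 and 4758 in the cKO, against 4822 and 4607 in the controls (log2 0.00, SE 0.0458, limma adjusted p 0.974), and its groups overlapped. Unc13a, the priming factor that opens syntaxin, had 2468 and 2869 in the cKO, against 3769 and 3546 in the controls (log2 -0.46, SE 0.0731, limma adjusted p 0.00811). Cplx1 and Unc13a were thus below both controls in each cKO library, while Cplx2 stayed within the control range of variation. Napb, the neuronal adaptor that recruits Nsf to spent SNARE complexes, had 1194 and 1322 in the cKO, against 1576 and 1500.5 in the controls (log2 -0.29, SE 0.0672, limma adjusted p 0.0258; edgeR adjusted p 0.0704), and the edgeR value missed the threshold. Nsf, the ATPase that takes these complexes apart in all cells, had 1750.2 and 1784 in the cKO, against 1989 and 1953 in the controls (log2 -0.16, limma adjusted p 0.0739).

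The active zone scaffolds, which hold vesicles near calcium channels, fell in 4 of 5 cases. Bsn, a giant scaffold of the presynaptic membrane, had 2221 and 2434 normalized counts in the cKO, against 2952 and 3369.6 in the controls (log2 -0.44, SE 0.0733, limma adjusted p 0.00907). Its relative Pclo had 1930.2 and 1874 in the cKO, against 2390.2 and 2831 in the controls (log2 -0.45, SE 0.0775, limma adjusted p 0.00972). Erc2, an ELKS family scaffold, had 2229 and 2462 in the cKO, against 2971 and 3256 in the controls (log2 -0.41, SE 0.0664, limma adjusted p 0.00857). These 3 genes kept between 72.9 and 75.3% of the control mean, with no overlap of the groups. Rims1, which links Rab3 on the vesicle to the active zone, had 249.9 and 274 in the cKO, against 385 and 413 in the controls (log2 -0.61, SE 0.103, limma adjusted p 0.00956). Its paralog Rims2 had 1490.0 and 1395 in the cKO, against 1486 and 1555 in the controls (log2 -0.08, SE 0.0600, limma adjusted p 0.437), with overlapping groups.

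Of the Rab3 GTPases, which mark vesicles for docking, and their effector, 3 of 4 fell. Rab3a had 2070.0 and 2429 normalized counts in the cKO, against 3223 and 3228 in the controls (log2 -0.52, SE 0.0731, limma adjusted p 0.00640). Rab3c (chr13:110054187-110280996) had 2815 and 3487 in the cKO, against 4878 and 4874 in the controls (log2 -0.64, SE 0.0877, limma adjusted p 0.00629). The effector rabphilin, Rph3a, had 162 and 233 in the cKO, against 340.3 and 361 in the controls (log2 -0.85, SE 0.166, limma adjusted p 0.0148). In all 3 the cKO libraries differed from each other by more than the controls did, with replicate 1 the lower. Rab3b had 204 and 277 in the cKO, against 359 and 245 in the controls (log2 -0.32, SE 0.202, limma adjusted p 0.329), and the groups overlapped.

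Proteins of the vesicle membrane and its surface gave 5 falls among 10 genes. Syp, synaptophysin, an abundant vesicle membrane protein, had 1710.1 and 2000.5 normalized counts in the cKO, against 2508 and 2484 in the controls (log2 -0.43, SE 0.0737, limma adjusted p 0.00956). Syn2, a synapsin that tethers reserve vesicles, had 1059 and 1152 in the cKO, against 1536 and 1439.9 in the controls (log2 -0.43, SE 0.0668, limma adjusted p 0.00786). Syn1 had 510.1 and 445 in the cKO, against 531 and 548 in the controls (log2 -0.18, limma adjusted p 0.237). The first pair of genes kept 74.3% of the control mean each, and Syn1 88.5%. The synaptogyrin Syngr3 had 734 and 795 in the cKO, against 1032 and 1018 in the controls (log2 -0.42, SE 0.0689, limma adjusted p 0.00857). Syngr1 had 979 and 1138 in the cKO, against 1306 and 1382 in the controls (log2 -0.35, SE 0.0805, limma adjusted p 0.0261; edgeR adjusted p 0.0692). Sv2a, a vesicle glycoprotein and the binding site of the antiepileptic levetiracetam, had 1265 and 1420.1 in the cKO, against 1908 and 1724 in the controls (log2 -0.44, SE 0.0756, limma adjusted p 0.00995). These 3 genes had no overlap of groups.

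The remaining vesicle membrane genes did not pass. Sv2b had 1172 and 1319 normalized counts in the cKO, against 1417 and 1262 in the controls (log2 -0.10, limma adjusted p 0.429). Sv2c was low, with 30.8 and 38.2 in the cKO, against 89.7 and 47.6 in the controls (log2 -0.91, SE 0.315, limma adjusted p 0.0923). Its control replicate 1 was far above the other 3 libraries (log2 -0.46 without it). The vesicular glutamate transporter genes, which load the vesicles of excitatory neurons, did not pass either. Slc17a6, the transporter of most embryonic and subcortical excitatory neurons, had 3653 and 3652 in the cKO, against 3683 and 3506 in the controls (log2 0.02, SE 0.0472, limma adjusted p 0.780). Slc17a7, the transporter that prevails in the mature cortex, had 875 and 925 in the cKO, against 1088 and 1014 in the controls (log2 -0.22, SE 0.0685, limma adjusted p 0.0652). Slc17a6 overlapped between groups and Slc17a7 did not.

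Of the 4 endocytic genes, 1 fell. Snap91, the neuronal clathrin assembly protein that sets vesicle size (chr9:86765923-86880734), had 1698 and 2104 normalized counts in the cKO, against 3181 and 3007 in the controls (log2 -0.71, SE 0.0918, limma adjusted p 0.00560). The other 3 bend or cut the vesicle neck. Dnm1, neuronal dynamin, had 446 and 436 in the cKO, against 552 and 521 in the controls (log2 -0.28, limma adjusted p 0.0569). Sh3gl2, endophilin, had 669 and 664 in the cKO, against 806 and 757 in the controls (log2 -0.23, limma adjusted p 0.0692). Amph, amphiphysin, had 870.0 and 1087 in the cKO, against 1486 and 1099 in the controls (log2 -0.39, SE 0.145, limma adjusted p 0.109). All 3 were lower in each cKO library than in either control without passing, and for Amph the controls differed more from each other than cKO replicate 2 did from control replicate 2.

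**Figure D2:**
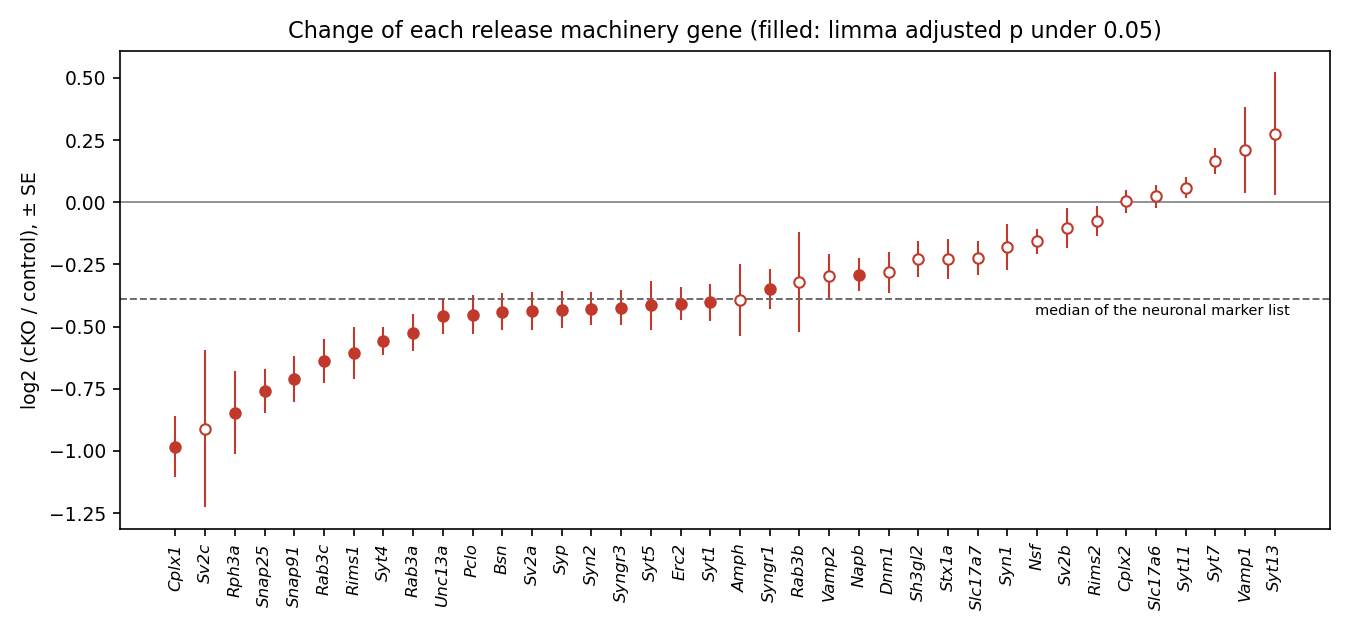
Log2 ratio of cKO over control for each of the 38 genes (points, limma estimate; bars, moderated SE), in order of the estimate, filled where the limma adjusted p was under 0.05, with a dashed line at the median of the neuronal marker list, -0.39. The estimates run from -0.98 for Cplx1 to 0.27 for Syt13 in one gradual order, and the points above 0 are all open.

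Relatives within a family had different estimates, and the ratio of 2 relatives within each library does not depend on scaling between libraries. The 9 pairs were chosen with the values known, so their ratios restate the gene changes given above and are no further evidence of a difference. Per 100 normalized counts of Cplx2 there were 5.28 and 6.38 of Cplx1 in the cKO libraries, against 11.9 and 11.1 in the controls. Per 100 of Rims2 there were 16.8 and 19.6 of Rims1 in the cKO, against 25.9 and 26.6 in the controls. Per 100 of Sv2b there were 108 and 108 of Sv2a in the cKO, against 135 and 137 in the controls. Each of these ratios was lower in both cKO libraries. The ratios of Slc17a7 to Slc17a6, Vamp2 to Vamp1, Syn2 to Syn1 and Rab3c to Rab3a were also lower in both cKO libraries, with log2 differences of -0.25, -0.51, -0.25 and -0.11. The ratios of Syngr3 to Syngr1 and of Bsn to Pclo overlapped between groups (log2 differences -0.08 and 0.01). With 2 libraries against 2, the exact two-sided permutation test cannot go below p = 0.333, which the 7 pairs without overlap reached (0.429 after Benjamini-Hochberg adjustment over the 9 pairs).

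Genes of the same process outside the 38 moved in both directions. Of 50 tested genes of vesicle docking, priming, loading and filling outside the set, 15 fell, 4 rose and 31 did not pass (median log2 -0.13). Svop, a transporter-like vesicle protein, had 1259 and 1388 normalized counts in the cKO, against 1949 and 1811 in the controls (log2 -0.51, SE 0.0677, limma adjusted p 0.00589). The direction was not uniform: the largest estimates of this list were upward. Doc2b, a high-affinity calcium sensor of spontaneous release, had 439 and 322 in the cKO, against 147 and 116 in the controls (log2 1.52, SE 0.178, limma adjusted p 0.00428). Sypl2, a synaptophysin relative best known from muscle, had 529 and 463 in the cKO, against 162 and 195 in the controls (log2 1.47, SE 0.127, limma adjusted p 0.00270). For both genes every cKO value lay above every control value, opposite to Syt1 and Syp. Without control replicate 1, 1 gene of this list fell and 2 rose, and without control replicate 2, 2 fell and 2 rose.

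Of 30 tested genes of vesicle endocytosis, most of which act in all cells, 8 fell, 1 rose and 21 did not pass (median log2 -0.10). Dnm3, a dynamin of neurons, had 540 and 615 normalized counts in the cKO, against 888 and 982 in the controls (log2 -0.70, SE 0.0890, limma adjusted p 0.00550). Dnajc6, the neuronal auxilin that uncoats clathrin vesicles, fell (log2 -0.40, SE 0.0588), as did the scaffold Itsn1 (log2 -0.29, SE 0.0443) and the endophilin Sh3gl3 (log2 -0.61, SE 0.106). Of 31 tested SNARE, SNARE-binding and Rab genes that serve secretion in all cells, 5 fell, 1 rose and 25 did not pass (median -0.08). The endosomal syntaxin Stx7 fell (log2 -0.41, SE 0.0677) and the 1 gene that rose was the endosomal SNARE gene Vamp8 (log2 0.57, SE 0.159), named after its values were seen. The count of falls in this list was 1 after quantile normalization and 3 after TMM scaling, 0 without either control replicate and 1 without cKO replicate 1; of the endocytosis genes 1 fell when control replicate 1 was left out, 0 when control replicate 2 was and 12 when cKO replicate 2 was.

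Neuronal markers outside the release machinery were also lower. Of 25 markers 22 fell, among them the microtubule protein gene Mapt (log2 -0.75) and the splicing factor gene Rbfox1 (log2 -0.77), none rose and 3 did not reach the threshold. Their median log2 difference was -0.39, and 20 of the 38 release genes had an estimate below that median. The sum of the 25 markers was 72.6 and 79.6% of the control mean in the cKO libraries, with both controls within 1% of their mean. The sum of the 38 release genes was 80.8 and 85.5%, against 100.7 and 99.3%. Syt11, which did not pass, held 15547 and 15153 of the release sums of 65161 and 68909 in the cKO. The sums thus weigh this gene heavily, whereas the medians of the release genes and the markers were -0.40 and -0.39. Markers of excitatory projection neurons fell in 8 of 10 cases and those of ventrally born interneurons, which lie outside the Emx1 lineage, in 5 of 11 (medians -0.39 and -0.75). Tbr1, Neurod2 and Neurod6 are in both the neuronal and the projection neuron list. The sum of the projection neuron markers was 73.03 and 82.55% of the control mean in the cKO libraries. That of the interneuron markers was 81.49 and 82.64%, so the sums did not keep the order of the medians. Dividing cell markers rose in 10 of 14 cases (median 0.27), radial glia markers rose in 5 and fell in 1 of 13 (median 0.09), and intermediate progenitor markers rose in 4 and fell in 1 of 8 (median 0.19). These counts were lower in the same fits: 7 neuronal, 2 projection neuron and 1 interneuron markers fell without control replicate 1 and 5, 1 and 1 without control replicate 2, and 1 dividing cell marker rose in either fit. Markers of Cajal-Retzius cells fell in 1 of 7 cases, and those of choroid plexus and hem rose in 3 of 8. Of 7 listed blood markers only 3 were in the RNA table, and 1 of these fell. The sum of those 3 was 44.8 and 71.0% of the control mean in the cKO libraries, against 82.9 and 117% in the controls. The part of these cell types in the falls of release genes was not tested.

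**Figure D3:**
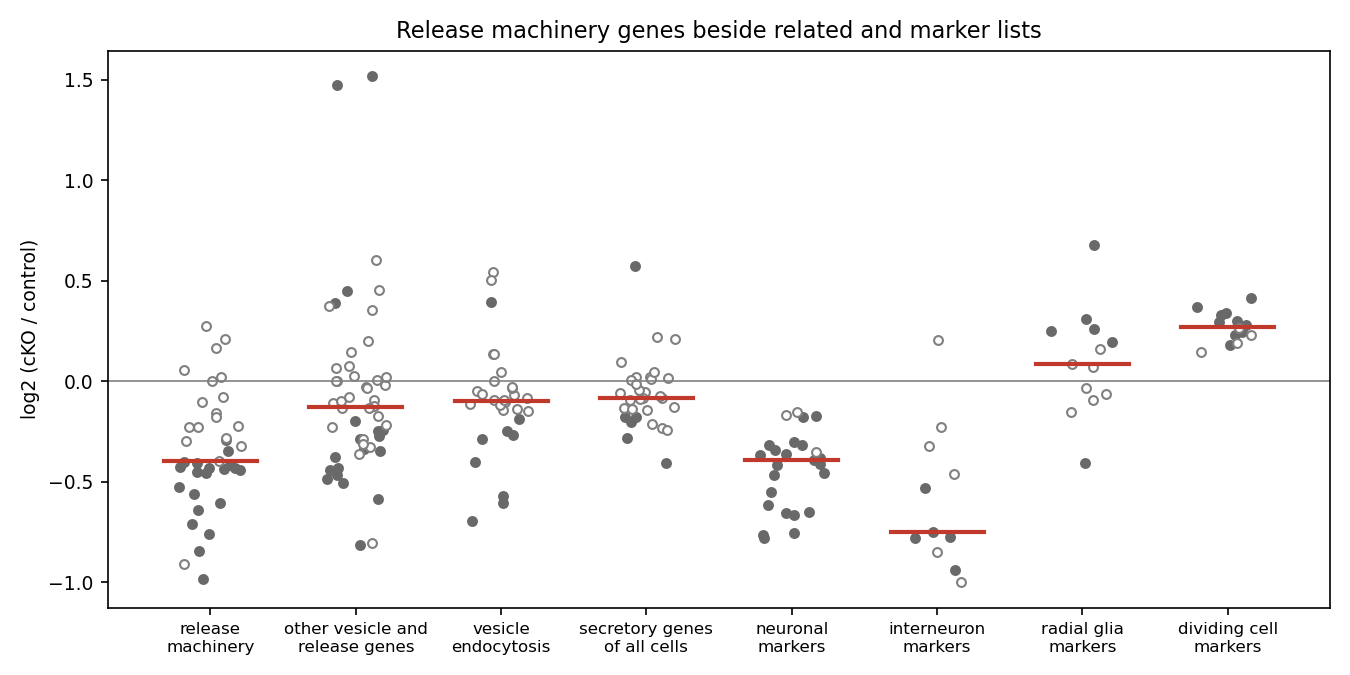
Log2 ratio of cKO over control (y axis) of every tested gene of the release machinery set and of 7 related or marker lists, with filled points for limma adjusted p under 0.05 and a red line at each median. The release machinery and neuronal marker medians lie at -0.40 and -0.39, the interneuron median at -0.75 and the dividing cell median at 0.27, and Doc2b and Sypl2 stand alone near 1.5 among the other release genes.

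The ChIP-seq table listed 6995 peaks of Rcor2 over IgG, and 22 of them carried the name of 1 of 15 release machinery genes. Of all tested genes 20.9% were named by a peak, against 39.5% of the 38. The median gene span was 62.3 kb for the 38 and 24.4 kb for all tested genes with a known span, and the part of gene length in the difference was not tested. Of the 22 peaks, 12 were in the gene body class, 6 in the promoter class and 4 in the distal class (54.5, 27.3 and 18.2%). These classes held 2515, 1619 and 1219 of all 6995 peaks, or 36, 23.1 and 17.4%. The remaining listed peaks were in none of these classes, and none of the 22 was among them. The shares of the 22 and of all peaks thus have unlike bases. The deposited fold enrichment over IgG, the authors' value, ran from 3.50 to 6.49 (median 4.08). The peaks were called on the same Rcor2 libraries, so their height over IgG is a description, and both Rcor2 heights lay above both IgG heights in all 22 (98.9% of all peaks). Against input the picture was different: both Rcor2 heights lay above both input heights in 7 of 22 peaks, or 31.8%, against 40.3% of all peaks.

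Of the peaks above both inputs, 5 were in the authors' gene body class and 2 in the distal class. The 7 peaks named 7 different genes. Upstream of Snap25 (mm10 chr2:136679484-136679890, distal class) the heights were 26 and 22 in the Rcor2 libraries, against 11 and 12 in input and 8 and 5 in IgG. Within Sv2b (chr7:75221111-75221648) they were 19 and 31 for Rcor2, against 11 and 10 in input and 6 and 3 in IgG. The summit lay at -1.46 kb (upstream) from the nearest of 4 RefSeq starts, nearer than at the promoter class peak of Unc13a (1.72 kb, downstream). That Sv2b start is internal to the gene span (chr7:75114894-75309262, minus strand). Within Sh3gl2 (chr4:85256175-85256580) the heights were 16 and 21 for Rcor2, against 7 and 10 in input and 4 and 2 in IgG. All 3 were separated from input in both libraries. Within Syt11 (chr3:88770011-88770298) they were 12 and 23 for Rcor2, against 7 and 7 in input and 5 and 1 in IgG. In these 4 peaks the mean Rcor2 height was at least 2 times that of input, which makes 18.2% of the 22 peaks, against 18.3% of all peaks. The others were a Syt1 gene body peak (13 and 21 for Rcor2, against 11 and 7 in input), a Slc17a7 gene body peak (15 and 19, against 12 and 14) and a distal Sv2c peak (17 and 12, against 10 and 6). Heights are small whole numbers with no scaling for depth, so differences of a few units lie within counting error.

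None of the 6 promoter class peaks had both Rcor2 heights above both inputs, a pattern held by 30.4% of all promoter class peaks. With only 6 peaks, this count cannot show a lower share than that. Of the 12 gene body peaks of the set 5 had the pattern, against 42.4% of all gene body peaks. At Rab3a (chr8:70754105-70754474, fold enrichment 6.49, the highest of the 22) the heights were 21 and 34 for Rcor2, against 22 and 13 in input and 11 and 2 in IgG. At Unc13a (chr8:71669907-71670183) they were 15 and 27 for Rcor2, against 19 and 19 in input and 5 and 4 in IgG. Rcor2 replicate 2 was above both inputs at either gene, while replicate 1 lay between the inputs at Rab3a and below both at Unc13a. At Amph (chr13:18948201-18948736) they were 14 and 17 for Rcor2, against 33 and 38 in input and 4 and 2 in IgG. At Rims2 (chr15:39659635-39659802) they were 15 and 11 for Rcor2, against 23 and 21 in input and 2 and 4 in IgG. Input was thus above both Rcor2 libraries at Amph and Rims2, as it was at the distal Syn2 peak (11 and 18 for Rcor2, against 27 and 21 in input). Syt11, the member with the most peaks (4), had 2 in the promoter class, at 16 and 21 for Rcor2, against 18 and 16 in input, and at 14 and 15, against 25 and 14.

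Of the 6 promoter class peaks, 2 reached into a RefSeq promoter window, taken from 250 bases before to 50 after the annotated start (GRCm38.p6, the assembly of mm10), of a gene in the set. Rims2 had no matched window, so its peak was not assessed. The Rims2 peak lies inside the gene span (chr15:39198286-39684372) and at neither end of it. Both windows are shown because a peak of the set reaches into them, with the bases under the peak in capitals. These are 200 bases at Amph (chr13:18948101-18948400, plus strand) and 22 at Rab3a (chr8:70754453-70754752, plus strand), where the peak lies mostly upstream. A Syt11 promoter class peak had its summit as near to a start (0.251 kb, against 0.258 kb at Amph and -0.487 kb at Rab3a). The Syt11 start used is internal to the gene span (chr3:88744699-88775159, minus strand). That Syt11 peak did not reach the window.
Amph: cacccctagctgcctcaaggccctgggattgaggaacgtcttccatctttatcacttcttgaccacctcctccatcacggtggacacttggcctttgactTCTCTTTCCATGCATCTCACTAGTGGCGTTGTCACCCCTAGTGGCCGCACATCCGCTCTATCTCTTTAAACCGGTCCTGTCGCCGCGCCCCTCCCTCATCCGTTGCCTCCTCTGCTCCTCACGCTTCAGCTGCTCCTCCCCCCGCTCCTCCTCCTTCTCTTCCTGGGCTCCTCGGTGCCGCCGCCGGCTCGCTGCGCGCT
Rab3a: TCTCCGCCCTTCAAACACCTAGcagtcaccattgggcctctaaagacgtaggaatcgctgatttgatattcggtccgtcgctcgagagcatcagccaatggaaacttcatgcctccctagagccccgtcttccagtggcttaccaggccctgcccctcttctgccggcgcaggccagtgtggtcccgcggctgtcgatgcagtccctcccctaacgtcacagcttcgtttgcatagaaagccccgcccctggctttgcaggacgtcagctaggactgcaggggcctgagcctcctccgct

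**Figure D4:**
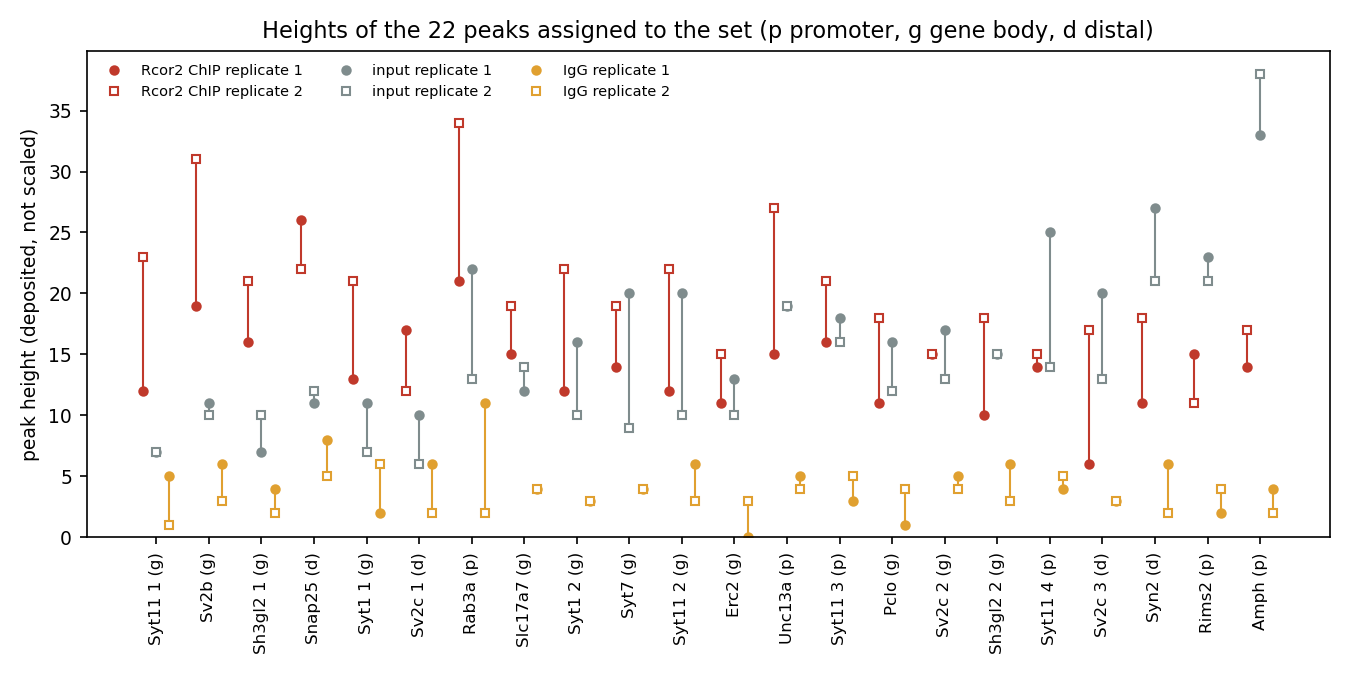
Deposited heights, not scaled for depth, of the 22 peaks named for release machinery genes in the 2 Rcor2 (red), 2 input (grey) and 2 IgG (yellow) libraries, ordered by the ratio of mean Rcor2 to mean input height, with circles for replicate 1 and squares for replicate 2. Red lies above yellow throughout, and above both grey symbols in 7 peaks, while at Amph on the far right input reaches 33 and 38 against 14 and 17 for Rcor2.

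Genes with and without a peak were among those that fell. Of the 15 genes named by a peak 7 fell, and of the 23 without a peak 13 fell; among all tested genes 10% of those named by a peak and 7.84% of the others fell. Without control replicate 1 the counts were 3 and 2, and without control replicate 2 they were 1 and 3. Snap25, Rab3a, Unc13a, Syt1, Syn2, Pclo and Erc2 had a peak and fell. The other 8 genes with a peak did not pass, with log2 estimates of 0.17 for Syt7, 0.06 for Syt11, -0.08 for Rims2, -0.10 for Sv2b, -0.22 for Slc17a7, -0.23 for Sh3gl2, -0.39 for Amph and -0.91 for Sv2c. Cplx1, Rph3a, Snap91, Rab3c and Rims1, which changed by -0.98 to -0.61, had none.

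RefSeq promoter windows were matched for 30 of the 38 genes, 39 windows in all. The cAMP response element, searched as TGACGTCA, which reads the same on both strands, stood in the windows of 2 genes, Sh3gl2 and Syn1 (5.13% of the 39 windows, against 1.79% of 32851 windows of all genes). Neither gene passed the test (log2 -0.23 and -0.18), Sh3gl2 had 2 gene body peaks and Syn1 had none. The match describes letters in a window only.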

How the data were processed

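RNA values are the authors' normalized counts (a signal), per the file headers. HISAT2 2.1.0, Trim Galore and build mm10 appear in the submitters' processing notes without a step, and the sources used here do not state the counter, annotation or scaling. Every deposited value was a whole multiple of 1 step per column (100% within 0.01 reads), which gave whole reads. The authors' deposited log2 changes, test scores and p-values stand beside them. In the deposited peak table the fold is a ratio over IgG, 2 columns with spoiled headers hold −log10 p and q by place and range, and heights are coverage signals with no depth scaling stated. limma-trend (limma 3.58.1, R 4.3.3) was fitted to log2(normalized count + 1), two-sided, over 14324 genes with a mean of at least 10, with Benjamini-Hochberg adjustment, a threshold of 0.05 and no replicate block; the log scale understates changes of low genes. edgeR 4.0.16 and DESeq2 1.42.0 on recovered reads were alternatives, and the fit was tested on simulated data. Members and lists were chosen with earlier results of these data known. All 38 members are named; of other lists, up to 4 genes that passed, by smallest adjusted p. The values of 1 such gene are not reported here. In the counts of genes named by a peak, a peak naming several genes counted for each. The 22 peaks of the set, and their heights, are those that named a member alone. Gene spans and promoters came from RefSeq (GRCm38.p6).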

Additional observations from a re-analysis of the deposited data

How the results depend on the processing

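When 1 library was left out, of the 38 release genes, between 4 and 24 fell and between 0 and 1 rose. Over all genes, between 82 and 1921 fell and between 58 and 1532 rose. Among the other vesicle and release genes, between 1 and 16 fell and between 2 and 6 rose. For vesicle endocytosis, between 0 and 12 fell and between 0 and 2 rose. For neuronal markers, between 5 and 22 fell, and for the secretory genes of all cells between 0 and 7 fell and between 0 and 0 rose. The estimate changed sign for Cplx2 (-0.0072 without cKO replicate 2, -0.0298 without control replicate 2; highest 0.036, without control replicate 1) and Slc17a6 (-0.0123 without control replicate 2; highest 0.059, without control replicate 1). Under pseudocounts 0.5 and 5, TMM scaling, no filter and quantile normalization all 38 genes kept their side of the threshold and their sign, as they did with DESeq2; a mean of at least 50 left out Syt13 alone; with edgeR 35 did, and 1 member rose, Syt7. With edgeR 2 other release genes and 2 endocytosis genes rose. Other release genes that rose numbered 2 after quantile normalization and 2 with no filter. Secretory genes that fell numbered 3 with TMM scaling, 1 with quantile normalization and 3 with no filter, and 0 rose with quantile normalization or no filter. With the replicate number as a block, 21 of the 38 release genes fell, the added gene being Vamp2 (limma adjusted p 0.0306), and 3 secretory genes fell and 0 rose; same-numbered libraries deviated together with a correlation of 0.242 over 14324 genes, but 2 pairs do not show a pairing. The cause of these moves was not tested. Peaks of the set numbered 11 at a fold enrichment of at least 4, 14 at a −log10 q of at least 5 and 6 in the promoter class alone; 4 (18.2%, against 18.3% of all peaks) had a mean Rcor2 height of at least 2 times input. After scaling each library to the same median over the listed peaks, which removes the enrichment itself, 5 (22.7%, against 29.8% of all) stood above both inputs and 1 (4.55%, against 14.8% of all) above both IgG heights. Peak heights of a few units and low genes such as Sv2c and Syt13 are limited by depth.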
